A study of Arabidopsis thaliana with 8 samples.

Results

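MIR172 is the Arabidopsis family of miRNA genes whose product, miR172, acts on the AP2-type transcription factors AP2, TOE1, TOE2, TOE3, SMZ and SNZ. The family has 5 annotated precursors, ath-MIR172a, ath-MIR172b, ath-MIR172c, ath-MIR172d and ath-MIR172e, and all 5 were taken by name from the 325 precursors and 20347 small RNA loci of the deposited count table. The libraries came from phloem exudates of wild-type Col-0 seedlings. All plants had an early dark period of 3 days, meant to lengthen the hypocotyls, and then grew on iron-replete half-strength medium until day 11. They were then moved for 3 days to medium without iron (−Fe) or to fresh medium with iron (+Fe). Apart from the shared dark period there was no other treatment, and no mutant or transgene, in either group. There were 4 biological replicates per condition, or 8 libraries, and each was made from exudate pooled from many rosettes, whose cut hypocotyls stood first in EDTA and then in the water that was collected. Whole-shoot libraries were not analysed here. Fewer MIR172 molecules in the sap and a larger share of other small RNAs in the library cannot be told apart in such data.

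A miRNA gene is transcribed into a long RNA that folds into a hairpin, and Dicer-like 1 cuts the short mature miRNA out of the stem. miR172 is best known as a switch of plant age and flowering. In young plants miR156 and the related miR157 hold down the SPL transcription factors, and as miR156 declines, SPL9 and its relatives activate MIR172 genes, MIR172b among them. miR172 then represses the AP2-type factors, several of which delay flowering, both by blocking their translation and by cleavage of their mRNA. In potato, miR172 has been associated with the phloem and its effect on tuber formation passes a graft. MIR172a and MIR172b encode the same mature miR172, MIR172c and MIR172d share another, and MIR172e has its own, all of them nearly identical.

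The precursors lie at separate places in the genome, given here as in the deposited table, for which the submitters name TAIR10. ath-MIR172a (AT2G28056) is on chromosome 2 from 11942913 to 11943014, between a long non-coding RNA gene, AT2G08215, and the protein-coding gene AT2G28060. ath-MIR172b (AT5G04275) is on chromosome 5 from 1188206 to 1188300, next to AtRZ-1c. ath-MIR172c (AT3G11435) is on chromosome 3 from 3599776 to 3599908, between GPAT5, an acyltransferase gene of suberin synthesis, and MYB65. ath-MIR172d (AT3G55512) is on chromosome 3 from 20587903 to 20588026, and its neighbour on one side is RTFL7. ath-MIR172e (AT5G59505) is on chromosome 5 from 23988471 to 23988595, and its neighbour on one side is RTFL5, of the same small family as RTFL7. None of the 5 overlaps another annotated gene in the TAIR10.1 gene table, so all are intergenic miRNA genes, and that table places the start of 4 of them 1 nt higher than the deposited file does.

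Library totals ranged from 10347644 to 14116739 counts, and annotated precursors took between 1.34% and 2.22% of them. The +Fe replicates 2 and 4 had a count at 12117 and 11269 loci, fewer than the other 6 libraries, which had between 14214 and 16201. They also held the highest precursor shares, 1.97% and 2.22%. Fragments at marker genes of phloem and of photosynthetic leaf cells were checked too. All 7 leaf photosynthesis genes examined (Rubisco small subunits, Rubisco activase and light-harvesting proteins) had a locus with counts, with a sum between 119 and 215 CPM in −Fe and between 115 and 281 CPM in +Fe libraries. Of the 8 phloem genes, only SUC2 and OPT3, transporters of sucrose and of iron, had loci. These summed to between 0 and 4.05 CPM in −Fe and between 0.0966 and 1.42 CPM in +Fe libraries, while APL, FTIP1, NAKR1, SEOA, SEOB and PP2-A1 had none. CPM are counts divided by the library total and put on the usual scale of counts-per-million. These are pieces of mRNA in small RNA libraries, and their part in the MIR172 values was not tested.

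Of the 5 genes, 3 accounted for every MIR172 count. The family held 1841 counts over the 8 libraries, of which ath-MIR172a had 814 (44.2%), ath-MIR172d 726 (39.4%) and ath-MIR172e 301 (16.3%), and these 3 had counts in each library. ath-MIR172b and ath-MIR172c had 0 counts in all 8 libraries, as did 70 of the 325 precursors. A count of 0 allows up to 3 counts in a library by a one-sided 95% limit. This is between 0.213 and 0.290 CPM, or 0.0310 CPM if the 3 counts are taken over all libraries. Two-sided exact Poisson 95% intervals for these counts of 0 end between 0.261 and 0.356 CPM, depending on the library. Such limits and the intervals below cover counting error only, as no molecular identifiers set copies made by PCR apart from separate molecules. As MIR172b shares its mature sequence with MIR172a and MIR172c shares its own with MIR172d, a read of the mature RNA has more than 1 possible origin. How the aligner divided such reads is not given in the sources used here, and the values below are therefore counts at the place where a read was put, not output of a gene. With the members grouped by mature sequence, the a and b group held the 814 counts of ath-MIR172a and the c and d group the 726 counts of ath-MIR172d.

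The deposited table also lists small RNA loci that were not named as precursors, and each MIR172 precursor overlaps one of them. The locus around ath-MIR172a is 300 nt long and had 819 counts, 5 more than the precursor, all 5 in −Fe replicate 4. The locus over ath-MIR172d begins 14 nt into the precursor and runs past its end, and had the same 726 counts in the same libraries. How reads that cross an edge were counted is not given in the sources used here. Equal counts therefore do not show whether reads began in the first 14 nt of the precursor. The locus around ath-MIR172e had the same 301 counts as the precursor. Around ath-MIR172b, the overlapping locus had 1 count, in −Fe replicate 2, and the locus over ath-MIR172c had 0. The overlapping locus thus had more counts than the precursor at MIR172a and MIR172b alone. Within 5 kb, other loci had their own courses over the libraries, such as a locus of 468 nt near ath-MIR172e with 62 of its 63 counts in +Fe replicate 4.

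**Figure D1:**
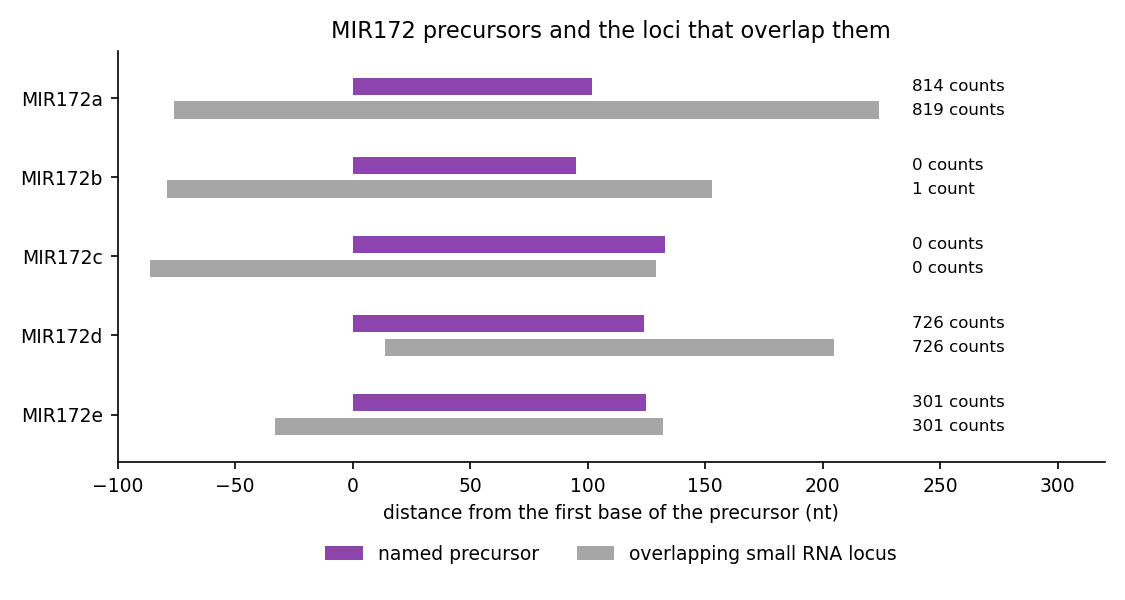
MIR172 precursors (purple) and the small RNA locus that overlaps each (grey), drawn to scale as distance in nt from the first base of the precursor in the deposited table, with total counts over the 8 libraries at the right. Counts of precursor and overlapping locus differ by 5 at MIR172a, by 1 at MIR172b and by 0 at the others.

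The level of ath-MIR172a, the highest member, was low and differed widely between libraries. Its counts in −Fe replicates 1 to 4 were 118, 115, 88 and 35, which are 11.1, 9.07, 7.42 and 2.66 CPM. Its counts in +Fe replicates 1 to 4 were 78, 27, 141 and 212, which are 5.53, 2.61, 10.5 and 20.3 CPM. The lowest and the highest library were both +Fe, so the −Fe values lie inside the +Fe range. The −Fe mean was 7.57 ± 3.61 CPM (SD, n = 4 here and for each group mean below) and the +Fe mean 9.73 ± 7.75 CPM, a difference within the replicate spread (p = 0.743 by a two-sided exact permutation test).

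ath-MIR172d had a slightly lower mean level and was below ath-MIR172a in 6 of the 8 libraries by count. Counts of 114, 121, 66 and 31 in −Fe replicates 1 to 4 corresponded to 10.8, 9.55, 5.56 and 2.35 CPM. Counts of 74, 34, 106 and 180 in +Fe replicates 1 to 4 corresponded to 5.24, 3.29, 7.90 and 17.2 CPM. As for ath-MIR172a, +Fe replicate 4 was the highest library, while −Fe replicate 4 and +Fe replicate 2 were the lowest ones. The groups overlapped, with means of 7.06 ± 3.84 CPM for −Fe and 8.41 ± 6.17 CPM for +Fe (p = 0.771 by a two-sided exact permutation test).

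ath-MIR172e, the member with a mature sequence of its own, had another pattern. Counts of 57, 65, 26 and 15 in −Fe replicates 1 to 4 corresponded to 5.38, 5.13, 2.19 and 1.14 CPM. Counts of 15, 79, 31 and 13 in +Fe replicates 1 to 4 corresponded to 1.06, 7.63, 2.31 and 1.24 CPM. Its highest library was +Fe replicate 2, where ath-MIR172a had its lowest value. The groups overlapped, with means of 3.46 ± 2.12 CPM for −Fe and 3.06 ± 3.10 CPM for +Fe (p = 0.886 by a two-sided exact permutation test). Without +Fe replicate 2 the +Fe mean of ath-MIR172e was the lower by 1.92 CPM in place of 0.40, still within the spread (p = 0.314, exact permutation test over 7 libraries). The direction turned in 4 of the 8 leave-outs, to a difference of -0.24 CPM without −Fe replicate 1, -0.16 without −Fe replicate 2, -0.27 without +Fe replicate 1 and -0.21 without +Fe replicate 4. Each of these 3 genes was tested as a single value, and the smallest p that 4 libraries against 4 can give is 0.0286.

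**Figure D2:**
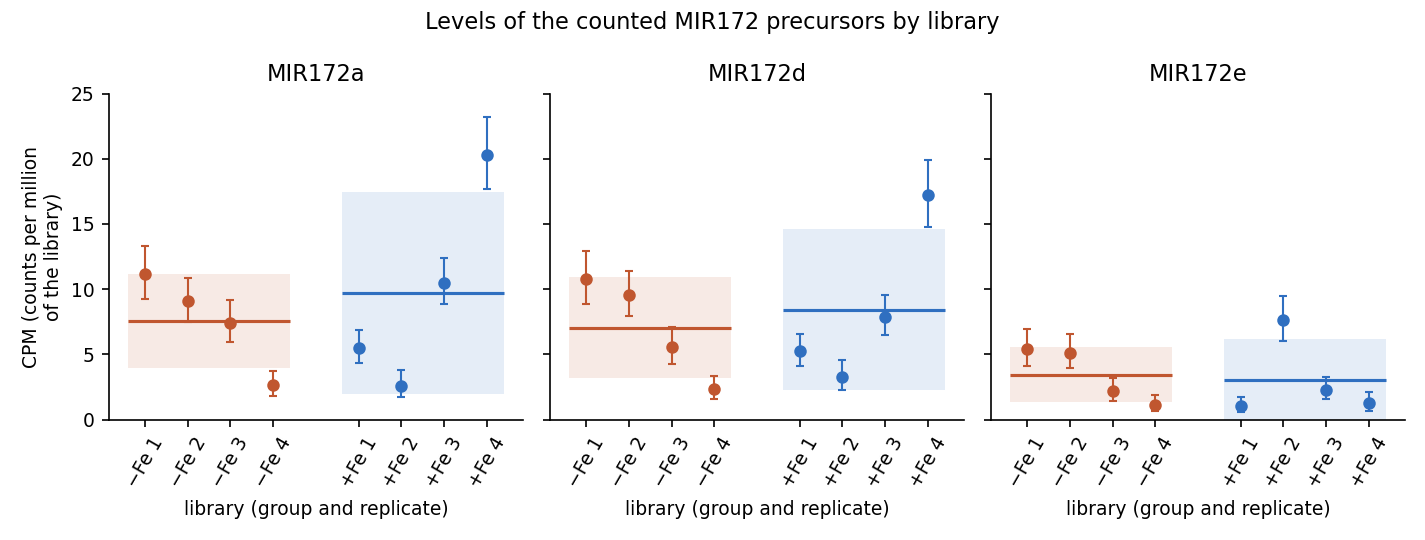
CPM of MIR172a, MIR172d and MIR172e in each library, −Fe replicates 1 to 4 in orange and +Fe replicates 1 to 4 in blue. Points carry exact Poisson 95% intervals (counting error only), lines are group means and bands are 1 SD, drawn down to 0 at the lowest. In +Fe, replicate 4 is highest for MIR172a and MIR172d (20.3 and 17.2 CPM) and replicate 2 for MIR172e (7.63 CPM), and the groups overlap in all 3.

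The spread between libraries was much larger than counting error. The variance of counts around the value expected from library size was 42.9 times the counting variance for ath-MIR172a, 34.3 times for ath-MIR172d and 22.2 times for ath-MIR172e. The highest library was 7.77-fold, 7.31-fold and 7.19-fold above the lowest for these genes. The coefficient of variation of their CPM was 66.1%, 62.2% and 75.6%, beside a median of 62.2% over the 119 precursors with a mean of 1 to 20 CPM. ath-MIR172d is itself the precursor at that median.

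Summed over the family, MIR172 had 27.3, 23.7, 15.2 and 6.15 CPM in −Fe replicates 1 to 4 and 11.8, 13.5, 20.7 and 38.8 CPM in +Fe replicates 1 to 4. The −Fe libraries averaged 18.1 ± 9.45 CPM and the +Fe libraries 21.2 ± 12.3 CPM, and their ranges overlapped. The direction of that difference was set by single libraries, since without +Fe replicate 4 the −Fe mean was the higher by 2.74 CPM, and without −Fe replicate 4 by 0.87 CPM. The sum of the family lay between MIR393a (19.8 ± 5.37 CPM, SD, n = 8) and MIR319a (19.3 ± 6.20 CPM), and 46 precursors outside the family had a higher mean CPM. Per 100 nt of precursor, the mean levels were 8.48 CPM for ath-MIR172a, 6.24 for ath-MIR172d and 2.61 for ath-MIR172e, at ranks 59, 71 and 105 among the 255 precursors with a count. The order of the members was thus the same with and without length. Neighbours in that order overlapped, at 8.65 ± 5.72 CPM for ath-MIR172a, 7.73 ± 4.81 CPM for ath-MIR172d and 3.26 ± 2.47 CPM for ath-MIR172e (SD, n = 8).

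Between ath-MIR172a and ath-MIR172d the division of counts had a narrower range over the libraries than the share of ath-MIR172e. ath-MIR172a made up 52.9% of the counts of these 2 genes over all libraries, from 44.3% in +Fe replicate 2 to 57.1% in −Fe replicate 3. The Wilson 95% interval of each of the 8 libraries held the pooled share, although such an interval covers counting error alone and takes reads as independent. The part of the aligner's placing of reads in this split was not tested.

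ath-MIR172e made up 16.3% of all MIR172 counts, and the Wilson 95% interval held this share in 3 of 8 libraries. In the −Fe libraries its share was 19.7%, 21.6%, 14.4% and 18.5% for replicates 1 to 4. In the +Fe libraries it was 8.98%, 56.4%, 11.2% and 3.21% for replicates 1 to 4. The −Fe values were close together, while +Fe replicate 2 lay far above and the other +Fe libraries below all of them. The mean share was 18.6% ± 3.03 for −Fe and 19.9% ± 24.6 for +Fe (p = 1.00 by a two-sided exact permutation test). Without +Fe replicate 2, the −Fe mean was the higher by 10.8 percentage points and the groups did not overlap (exact two-sided permutation test over 7 libraries, p = 0.0286, the smallest that 4 against 3 can give). This p is not adjusted for the 8 ways of leaving out a library, of which no other gave a p that low. Without both +Fe replicates 2 and 4 the difference was 8.50 percentage points (exact permutation test, p = 0.0667, the smallest that 4 against 2 can give), also without overlap. The choice of these 2 libraries was made after seeing the data. With all libraries, the shares of ath-MIR172a (42.8% ± 4.55 in −Fe and 42.3% ± 15.5 in +Fe) and of ath-MIR172d (38.6% ± 1.54 and 37.8% ± 9.47) did not differ beyond their spread either (exact permutation tests, p = 1.00 and p = 0.914).

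**Figure D3:**
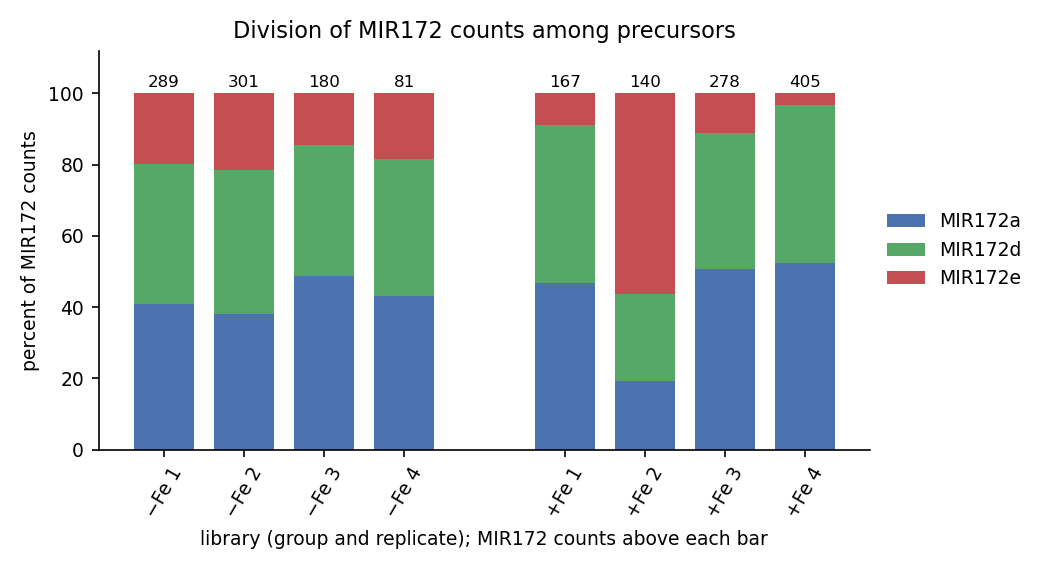
Stacked bars of the percent of MIR172 counts at MIR172a (blue), MIR172d (green) and MIR172e (red) in each library, with the number of MIR172 counts above each bar. MIR172e takes between 14.4% and 21.6% in −Fe, and 8.98%, 56.4%, 11.2% and 3.21% in +Fe replicates 1 to 4.

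Iron supply was compared across all loci with edgeR's quasi-likelihood test, and calls required an adjusted p (Benjamini-Hochberg) below 0.1 together with a log2 change of 0.5 or more, up or down. Of the 5 MIR172 precursors, 3 had the 10 counts over the 8 libraries that the test required. None of the 3 was called and none had an unadjusted p under 0.05. Over the 17722 loci tested, 0% were called by edgeR, 6.69% had an unadjusted p under 0.05, and 2.96% had CPM values that did not overlap between −Fe and +Fe, which was true of none of the 3 precursors. Of the 1186 loci with an unadjusted p under 0.05, 861 were higher in −Fe, against 688 of 1274 when edgeR used library totals without TMM scaling. With TMM scaling and edgeR's own, stricter filter on counts, 148 of 310 such loci were higher in −Fe, so this split depended on the filter too. DESeq2, run here on the same counts, called 34 loci and again none of the 3. The log2 fold change of −Fe over +Fe was -0.18 for ath-MIR172a (SE 0.51, 95% interval -1.22 to 0.87, edgeR adjusted p = 0.998). For ath-MIR172d it was -0.08 (SE 0.51, 95% interval -1.14 to 0.97, edgeR adjusted p = 0.998). For ath-MIR172e it was 0.36 (SE 0.83, 95% interval -1.34 to 2.07, edgeR adjusted p = 0.998). A log2 change of -1 lies inside all 3 intervals and is not excluded by these data, while a change of 1 lies inside that of ath-MIR172e. For ath-MIR172a and ath-MIR172d a change of 1 lies just above the interval, and whether it is excluded depended on the setting. The upper limits were 0.82 and 0.90 with DESeq2, and 1.41 and 1.49 with edgeR without +Fe replicate 4. The median of the 3 values, -0.08, lay near the median of all loci tested, 0.07, and of the 233 precursors tested, 0.06.

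The sign of these fitted changes depended on single libraries for ath-MIR172a and ath-MIR172d. Without +Fe replicate 4 they were 0.41 and 0.48, and without −Fe replicate 4 they were 0.08 and 0.18 (smallest edgeR adjusted p over all leave-outs 0.926 and 0.972). For ath-MIR172e the fitted change stayed positive with each library left out, from 0.003 without −Fe replicate 1 to 1.29 without +Fe replicate 2 (smallest edgeR adjusted p = 0.814). The CPM difference of this gene, which turned in some of these leave-outs, used library totals. With TMM-scaled CPM and all libraries it was 0.79 in place of 0.40. The estimated biological coefficient of variation was 0.53 for ath-MIR172a, 0.54 for ath-MIR172d and 0.81 for ath-MIR172e, against a median of 0.84 over the precursors tested and 1.14 over all loci.

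**Figure D4:**
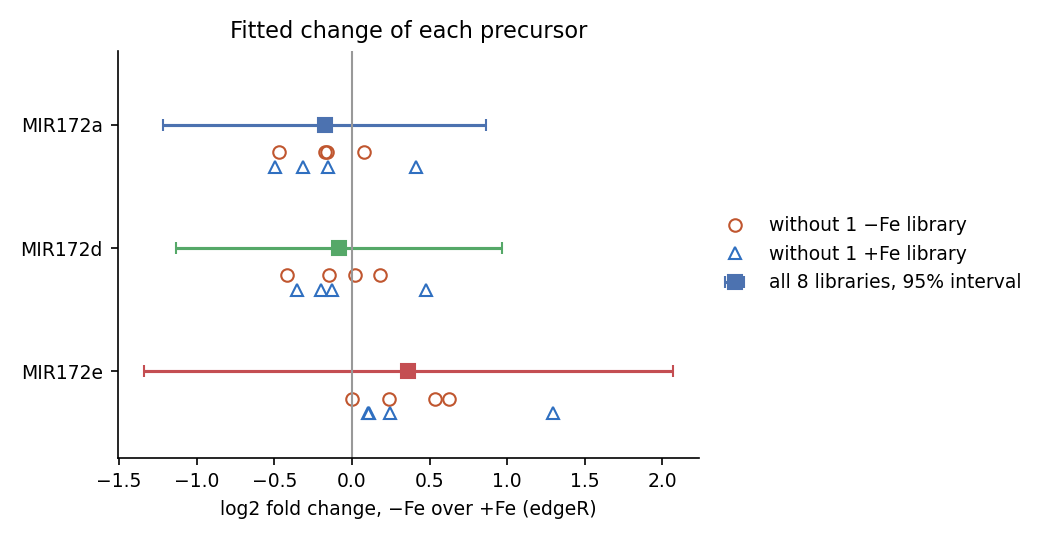
Fitted log2 fold change of −Fe over +Fe by edgeR for MIR172a, MIR172d and MIR172e, as squares with 95% intervals from all 8 libraries. Open circles leave out 1 −Fe library and triangles 1 +Fe library. All 3 intervals include 0, and the points for MIR172a and MIR172d fall on both sides of it.

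The upstream arm of the age pathway had far more counts in the same libraries, which need not equal the ratio of molecules in the sap. The MIR156 and MIR157 precursors, whose product represses the SPL activators of MIR172, number 14, of which 12 had counts. Their summed level averaged 1126 ± 279 CPM for −Fe and 1272 ± 443 CPM for +Fe. Most counts were at ath-MIR157c (636 ± 160 CPM, SD, n = 8) and ath-MIR156d (325 ± 126 CPM, SD, n = 8), although these paralogs may share reads as the MIR172 genes do. The median ratio of MIR156 and MIR157 counts to MIR172 counts was 65.6 over the libraries, and 47.2 when the counts of each precursor were divided by its length. In −Fe replicates 1 to 4 the ratio of counts was 40.9, 63.6, 67.6 and 138, and in +Fe replicates 1 to 4 it was 113, 130, 33.2 and 33.5. The ranges of the conditions overlapped, with means of 77.6 ± 42.1 for −Fe and 77.6 ± 51.5 for +Fe. With MIR156 alone the median ratio was 26.9. Of the 14 precursors, 10 were tested by edgeR, 5 with a positive and 5 with a negative fitted change, and 0 were called (0 with an unadjusted p under 0.05). Their median log2 fold change was -0.02.

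**Figure D5:**
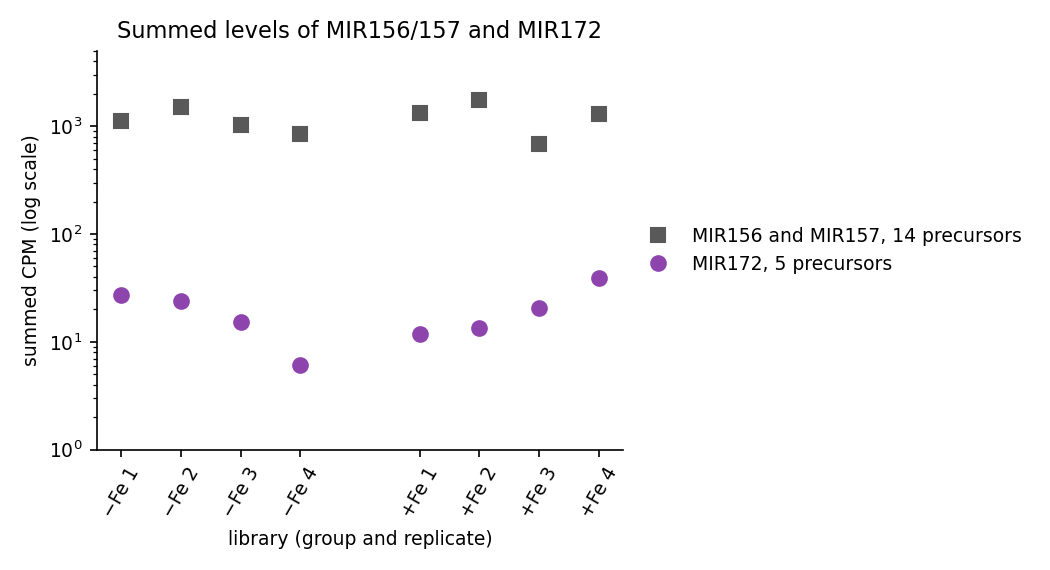
Summed CPM of the 14 MIR156 and MIR157 precursors (grey squares) and of the 5 MIR172 precursors (purple circles) in each library, on a log scale. The MIR156 and MIR157 sum lies between 688 and 1765 CPM and the MIR172 sum between 6.15 and 38.8 CPM, with no separation of −Fe from +Fe libraries.

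The loci of the table at genes that miR172 acts on held 125 counts in all, and reads outside listed loci are not known. Of the 6 AP2-type target genes, AP2, TOE1 and TOE2 overlapped a locus of the table, and TOE3, SMZ and SNZ overlapped none. The locus at AP2, the floral identity gene, had 0 counts. The locus at TOE2, a repressor of flowering, had 8 counts, 3 of them in −Fe replicate 1, 4 in +Fe replicate 1 and 1 in +Fe replicate 3. At TOE1, also a repressor of flowering, counts were 18, 0, 2 and 10 for −Fe replicates 1 to 4 and 6, 2, 13 and 66 for +Fe replicates 1 to 4. The highest of these libraries, +Fe replicate 4, was also the highest for ath-MIR172a and ath-MIR172d. The TOE1 locus averaged 0.66 ± 0.77 CPM for −Fe and 1.98 ± 2.91 CPM for +Fe, with a log2 fold change of -1.20 (SE 1.57, edgeR adjusted p = 0.998). Without +Fe replicate 4 the +Fe mean of TOE1 was 0.53 ± 0.40 CPM (SD, n = 3), below the −Fe mean, and the log2 fold change turned to 0.60 (SE 1.97, edgeR adjusted p = 1.00). The table gives no positions of reads within the 2477 nt of this locus, so pieces left by miR172 cleavage could not be told from other fragments.

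Coverage differed among the other genes of the pathway. Of the 11 SPL genes examined, 7 overlapped 8 loci, of which 2 are themselves MIR156 precursors (ath-MIR156i and ath-MIR156j). Of the 8 loci, 3 passed the filter on counts and 0 were called by edgeR. Most counts were at the locus of SPL2, 2637 in all, of which 37.6% of the length lies in the gene. It had 22.2, 22.8, 27.1 and 18.5 CPM for −Fe replicates 1 to 4 and 27.3, 42.6, 27.3 and 33.9 CPM for +Fe replicates 1 to 4. In these CPM of library totals the −Fe libraries were all below the +Fe libraries, by a narrow gap. Such separation was found at 2.96% of all loci tested. It depended on the scaling, since with TMM-scaled library sizes +Fe replicate 3 fell below −Fe replicates 1, 3 and 4 and the groups overlapped. Its log2 fold change was -0.32 (SE 0.25, edgeR adjusted p = 0.950). The locus of SPL13A, with 82 counts, had a log2 fold change of -1.64 (SE 1.77, edgeR adjusted p = 0.998), and its groups overlapped. Of the 3, the locus at SPL3, which promotes flowering, alone had an unadjusted p under 0.05 by edgeR, a mark that 6.69% of all loci tested passed. There, −Fe replicates 2 to 4 held 2, 4 and 11 counts and the other libraries 0 (edgeR adjusted p = 0.645). The unadjusted p was 0.075 by DESeq2, and an exact permutation test of the CPM gave p = 0.143. Of the 10 flowering genes examined, GI and TSF overlapped a locus (that of TSF with 6.66% of its length), and both loci were tested without a call (smallest edgeR adjusted p = 0.988). FT, which encodes the phloem-mobile florigen protein, overlapped none.

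Outside the family, the precursors whose course over the libraries was most like that of the MIR172 sum were MIR5635a, MIR846 and MIR156f. Likeness was the root mean square difference of log2(CPM + 1), centred on its mean over the 8 libraries, and was 0.40, 0.45 and 0.45 on the log2 scale for these genes. The median over the 230 precursors compared was 0.81. ath-MIR172d was at 0.21 and ath-MIR172a at 0.35, both of which are part of the sum, while ath-MIR172e was at 0.90, farther than the median precursor. MIR5635a had 15.5, 16.6, 15.6 and 9.57 CPM in −Fe replicates 1 to 4 and 14.5, 13.3, 18.0 and 30.5 CPM in +Fe replicates 1 to 4, so that −Fe replicate 4 was its lowest library and +Fe replicate 4 its highest, as for the MIR172 sum. These 8 points share the depth and composition of each library, and the order is a description. With a pseudocount of 0.1 CPM, 2 of the 3 were again the closest.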

How the data were processed

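Small RNA libraries of phloem exudate from 4 −Fe and 4 +Fe samples were analysed. Adapters had been trimmed by Cutadapt, with reads of any length kept, and ShortStack had placed and counted the reads, which the authors deposited as raw counts per locus. The submitters' processing notes name TAIR10. Versions, and the placing of reads with several best positions, are not given in the sources used here. A column with the sum of the libraries was not used, and 0 library columns were left out.

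Loci whose counts summed to 10 or more were tested with edgeR (version 4.0.16, limma 3.58.1, R 4.3.3) after TMM normalization, with condition as the only term and Benjamini-Hochberg adjustment over all loci. SE were derived from the F statistic. DESeq2 (version 1.42.0) was an alternative. CPM used library totals, from 10347644 to 14116739 counts. Single values were compared by exact permutation tests over 70 divisions into 4 and 4, in Python 3.11.15 with scipy 1.17.1. The edgeR and DESeq2 tests were checked on simulated counts, and the permutation test against that of scipy on random values. Genes were assigned by an overlap of at least 1 nt with the TAIR10.1 table, where all 5 members matched by symbol. Alternatives were other scalings and filters, a replicate block and leaving out libraries. Named genes were the members, the 6 targets, the 2 highest MIR156 or MIR157 precursors, the neighbours of the family in level and the 3 most alike precursors. SPL2, SPL3, SPL13A, MIR172e's share and single libraries were singled out after their values were seen. Members and lists were chosen with earlier results of these data known.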

Additional observations from a re-analysis of the deposited data

Results flagged for a closer look

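In the +Fe group, replicate 2 stood apart from the other libraries in how MIR172 counts were divided. Its share of ath-MIR172e was 56.4%, against 3.21% to 11.2% in the other +Fe libraries, and the gap to the nearest of them was 0.851 of the whole range. Its share of ath-MIR172a was 19.3%, against 46.7% to 52.3% in the others, at the limit of the same measure. Both are the same counts seen from 2 sides, since shares sum to the whole, and chance alone puts about 1 in 20 groups past the limit among the 29 groups examined. The cause was not tested. +Fe replicate 2 was also 1 of the 2 libraries with fewer loci counted (12117), while its total of 140 MIR172 counts was not the lowest. At the TOE1 locus, +Fe replicate 4 had 6.32 CPM against 0.193 to 0.968 CPM in the other +Fe libraries. MIR5635a had 9.57 CPM in −Fe replicate 4 against 15.5 to 16.6 CPM in the other −Fe libraries.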

How the results depend on the processing

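No MIR172 precursor was called under any setting tried, and 3 were detected in all 8 libraries at 1 count, 10 counts or 1 CPM. Other scalings kept the sign of each fitted change, though library totals in place of TMM moved the median of all loci by -0.19 on the log2 scale. DESeq2 called 34 loci, the replicate block 3 and the fit without +Fe replicates 2 and 4 together 5, against 0. With the replicate block the log2 fold change was 0.10 for ath-MIR172a and 0.069 for ath-MIR172d, both of changed sign, and without both libraries 0.030 and 0.19. Same-numbered libraries correlated at 0.0037 to 0.045 across loci, all above 0 but low, and the highest values (0.045 and 0.030) were among them. However, −Fe replicate 1 correlated best with +Fe replicate 2 (0.021). Values this low cannot decide whether the numbers pair libraries, and the main fit did not pair them. Without both +Fe replicates 2 and 4, the −Fe minus +Fe difference changed sign to 0.49 CPM for ath-MIR172d and 1.82 CPM for the family. In shares it changed sign to -5.93, -2.57 and 8.50 percentage points for ath-MIR172a, ath-MIR172d and ath-MIR172e. The log2 fold change of the TOE1 locus without both was 0.20, also of changed sign. The cause was not tested.

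With 1 library left out, 0 to 1 loci were called (1 without +Fe replicate 2). The log2 fold change ranged from -0.49 to 0.41 for ath-MIR172a, from -0.42 to 0.48 for ath-MIR172d and from 0.003 to 1.29 for ath-MIR172e. The difference of levels ranged from -4.53 to 1.36 CPM, from -3.06 to 1.58 CPM and from -0.27 to 1.92 CPM in the same order, and from -6.24 to 2.74 CPM for the family. The difference of shares ranged from -7.14 to 3.88, from -3.65 to 3.07 and from -6.95 to 10.8 percentage points. For the TOE1 locus the level ranged from -1.91 to 0.13 CPM and the log2 fold change from -2.13 to 0.60. An unadjusted p under 0.05 was found at 310 of the 11273 loci tested with edgeR's own filter on counts. The number was 635 of 17722 with the replicate block and 769 of 17362 without −Fe replicate 3. The main fit had 1186 of 17722. The variance between libraries was 22.2 to 42.9 times the counting variance, so the spread between libraries more than depth set the precision.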
